A study of Mus musculus with 6 samples.

Results

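The 10 genes described here encode the D-type cyclins (*Ccnd1*, *Ccnd2* and *Ccnd3*), their kinases (*Cdk4* and *Cdk6*), and the inhibitors that hold these kinases back (*Cdkn1a*, *Cdkn1b*, *Cdkn1c*, *Cdkn2c* and *Cdkn2d*). They were taken by symbol from a table of 12101 genes, in which all 10 were found, and all 10 passed the filter on low values that left 12088 genes to be tested. The RNA came from megakaryocyte–erythroid progenitors (MEPs) of adult *Nanog* transgenic mice of CD-1 strain, sorted from lineage- cKit+ Sca1- bone marrow cells by their CD34 and CD16/32. Both groups carried the same alleles, the reverse tetracycline transactivator M2-rtTA at *Rosa26* and a *Nanog* cDNA under a tetO promoter downstream of *Col1a1*. The transactivator is not restricted to blood cells, so doxycycline (dox) acted on the whole animal. The dox-treated group received dox in the drinking water for 5 days and the untreated group did not, with 3 libraries in each group. No dox-treated group lacked the transgene, so effects of dox itself and of induced *Nanog* cannot be told apart. The age of the adults, and whether a replicate was 1 mouse or a pool, are not given in the sources used here, so that p-values measure the spread between these libraries.

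D-type cyclins bind CDK4 or CDK6 in G1, the growth phase before DNA replication, and the resulting kinases phosphorylate the retinoblastoma protein, which releases E2F factors to switch on S phase genes. Inhibitors of the INK4 class, among them p18INK4c (*Cdkn2c*) and p19INK4d (*Cdkn2d*), bind CDK4 and CDK6 alone, whereas those of the CIP/KIP class, p21 (*Cdkn1a*), p27 (*Cdkn1b*) and p57 (*Cdkn1c*), bind cyclin–CDK complexes and block CDK2 most strongly. In blood formation, *Cdkn1c* is best known from quiescent stem cells, *Cdkn1b* and *Cdkn2c* from the cell cycle exit of maturing erythroid cells, and *Ccnd3* and *Cdk6* from the control of the number and size of red cells.

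Libraries held between 11264803 and 16153600 reads on the listed genes, and 1 read was worth between 0.0642 and 0.091 counts per 1000000 (CPM). *Nanog* itself was at 1247 ± 218 CPM in dox-treated against 0.624 ± 0.442 CPM in untreated MEPs (SD, n = 3 each). Dox-treated replicate 3 stood apart. On the first principal component (60.4% of the variance) it scored 14.8, against 57.5 and 56.3 in the other dox-treated libraries and -54.2 to -35.1 in the untreated ones. On the second (17.3%) it scored -51.7, against -4.83 to 20.2 in the rest, and values without that library are given below. All 18 erythroid markers looked for were listed, with a summed level between 8883 and 9402 CPM in untreated libraries, 6569 and 6382 CPM in dox-treated replicates 1 and 2, and 10909 CPM in replicate 3. *Car2*, *Car1* and *Aqp1* had the highest untreated means (2649, 2337 and 1193 CPM) and weigh most in this sum. Of the 18 log2 fold changes 8 were positive and 10 negative. The 14 granulocyte-monocyte markers summed to 541.4 to 808.9 CPM with dox and to 2439 to 5622 CPM without, and 10 of them fell (limma, adjusted p under 0.05). The 13 listed megakaryocyte markers of 15 summed to 722.5, 726.3 and 294.6 CPM in dox-treated replicates 1, 2 and 3 and to 181.6 to 245 CPM in untreated libraries, and the 9 listed stem and multipotent progenitor markers of 12 to 314 to 458.6 CPM with dox and 144.1 to 234 CPM without. For mast cells and basophils 5 of 12 markers were listed (64.97 to 86.99 CPM with dox, 13.34 to 20.79 CPM without), and *Fcer1a*, *Hdc* and *Tpsb2* were not among the genes analysed. For lymphoid cells 7 of 12 were listed (19.09 to 75.88 CPM with dox, 19.79 to 23.09 CPM without). Of the erythroid markers 1 fell, of the megakaryocyte markers 3 rose and 1 fell, of the mast cell and basophil markers 2 rose, and of the stem and lymphoid markers 0 passed the threshold, in a fit that called 4.59% of all genes higher and 3.18% lower. In the fit without dox-treated replicate 3, which called 14.9% of all genes higher and 14.0% lower, the calls were 9 lower of 18 erythroid, 7 higher and 2 lower of 13 megakaryocyte, 2 higher and 1 lower of 5 mast cell and basophil, 11 lower of 14 granulocyte-monocyte, 6 higher of 9 stem and multipotent progenitor and 0 of 7 lymphoid markers. The part of these marker changes in the results below was not tested. In such bulk libraries fewer cells of a type and less RNA per cell cannot be told apart.

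To compare levels between genes, CPM were divided by the median length of each gene's annotated coding transcripts in kilobases. In untreated MEPs the order from high to low was *Cdk4* (454.2 CPM per kilobase), *Ccnd3* (82.6), *Cdk6* (35.65), *Cdkn2c* (31.8), *Ccnd2* (27.3), *Cdkn1b* (12.9), *Cdkn2d* (5.73), *Cdkn1a* (2.95), *Ccnd1* (1.17) and *Cdkn1c* (0.52). The ranges of the 3 libraries overlapped between *Cdk6* and *Cdkn2c* and between *Cdkn2c* and *Ccnd2*, and between no other neighbours. Therefore *Ccnd3* was the most abundant D-cyclin transcript, *Cdk4* the more abundant kinase and *Cdkn2c* the most abundant inhibitor. Annotated lengths differ within a gene (1106 to 2471 bases for *Cdkn2c*, 748 to 1910 for *Cdkn1a*). In both groups the ranks of close neighbours therefore depend on the use of the median length. In dox-treated MEPs the order was *Cdk4* (343 CPM per kilobase), *Ccnd3* (54.2), *Cdk6* (53.8), *Ccnd2* (34.7), *Cdkn1b* (29.8), *Cdkn2c* (29.2), *Cdkn2d* (10.6), *Cdkn1a* (3.045), *Cdkn1c* (1.06) and *Ccnd1* (0.604), and libraries overlapped between *Ccnd3* and *Cdk6*, *Ccnd2* and *Cdkn1b*, *Cdkn1b* and *Cdkn2c*, and *Cdkn1c* and *Ccnd1*. *Ccnd1*, *Cdkn1a* and *Cdkn1c* were low in both groups, with at most 63 reads in any library.

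**Figure D1:**
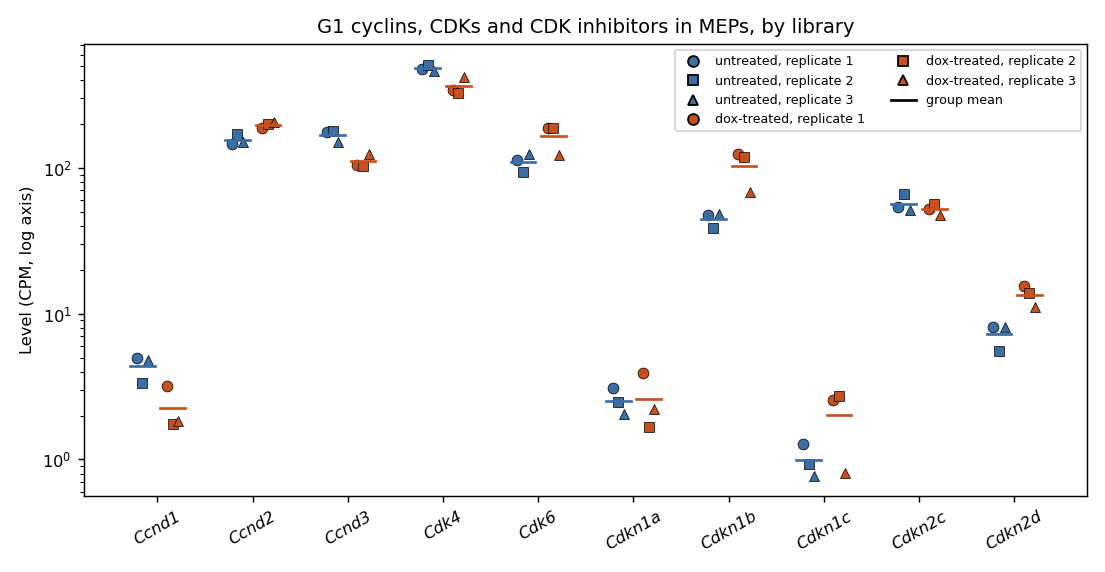
Level of each of the 10 genes in CPM on a log axis, for untreated (blue) and dox-treated (orange) libraries, with replicate 1 as circles, 2 as squares and 3 as triangles, and group means as bars. *Ccnd3* and *Cdk4* lie lower and *Ccnd2*, *Cdkn1b* and *Cdkn2d* higher in all 3 dox-treated libraries, and dox-treated replicate 3 lies nearest to the untreated libraries for *Cdkn1b*.

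With limma on the deposited log2 values and Benjamini–Hochberg adjustment over all genes tested, 1 of the 10 genes, *Ccnd3*, was lower with dox at an adjusted p under 0.05 and 0 were higher. Over all genes 3.18% were lower and 4.59% were higher by this rule. An unadjusted p under 0.05 was reached by 7 of the 10, against 29.2% of all genes. The ranges of the groups were separate for 3 genes that were higher with dox (*Ccnd2*, *Cdkn1b* and *Cdkn2d*) and 3 that were lower (*Ccnd1*, *Ccnd3* and *Cdk4*), where 17.7% and 18.2% of all genes were so separated. For each of these 6 the exact permutation p (two-sided) was 0.1, which is the lowest value that 3 libraries against 3 can give. Without dox-treated replicate 3, 4 of the 10 genes were higher (*Cdk6*, *Cdkn1b*, *Cdkn1c* and *Cdkn2d*) and 2 lower (*Ccnd3* and *Cdk4*) at an adjusted p under 0.05 (limma), but 14.9% and 14.0% of all genes were then called higher and lower. Without any other single library 0 of the 10 were called in either direction, in fits that called only 135 to 269 of the 12088 genes, and the log2 fold change of *Ccnd3* was between -0.69 and -0.56 in them. Without dox-treated replicate 3 the groups were separate for 5 genes higher and 3 lower with dox, where 31.1% and 35.5% of all genes were. The median of the 10 log2 fold changes was 0.16, against -0.03 over all genes, and the median of their sizes regardless of sign was 0.59, against 0.27.

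**Figure D2:**
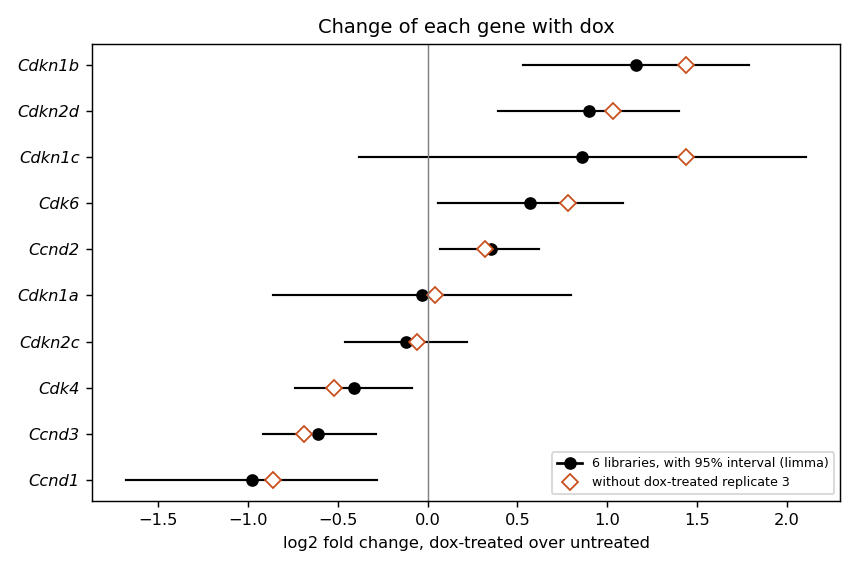
Log2 fold change of each gene, dox-treated over untreated, from limma on all 6 libraries (black circles, bars are 95% intervals) and without dox-treated replicate 3 (open diamonds), ordered by size. *Cdkn1b* lies at 1.16 and *Ccnd1* at -0.98, and *Cdk6* and *Cdkn1c* lie farther from 0 without that library.

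Promoter windows are shown for the kinases, for the cyclin that fell and for the inhibitor with the largest log2 fold change in the main limma fit. The letters before their start sites can thus be read beside the values that follow. The RefSeq table (GRCm38.p6, a later build than that of the gene positions) held 7 of the 10 genes, and had no entry for *Ccnd1*, *Ccnd2* or *Cdkn1c*. Each sequence below is the 250 bases before an annotated start, 5′ to 3′ on the strand of the gene, in lower case. Capitals mark matches on either strand to 9 motifs, and no matches overlapped in the windows shown. The motifs were the CCAAT box, the GC box with the letters GGGCGG, an E2F motif written TTTNNCGC and a GATA motif written AGATAA. The others were the E-box with the letters CACGTG, a forkhead motif written GTAAACA, the homeodomain core TAAT, the erythroid promoter element CCACACCC and the sequence TATAAA.
Cdkn1b, chr6:134920151-134920400, plus strand: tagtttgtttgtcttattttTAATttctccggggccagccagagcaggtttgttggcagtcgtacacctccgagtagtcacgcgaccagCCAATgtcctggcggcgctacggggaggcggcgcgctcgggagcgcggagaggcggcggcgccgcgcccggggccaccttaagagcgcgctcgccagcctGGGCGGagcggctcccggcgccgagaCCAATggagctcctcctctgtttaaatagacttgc
Cdk4, chr10:127063285-127063534, plus strand: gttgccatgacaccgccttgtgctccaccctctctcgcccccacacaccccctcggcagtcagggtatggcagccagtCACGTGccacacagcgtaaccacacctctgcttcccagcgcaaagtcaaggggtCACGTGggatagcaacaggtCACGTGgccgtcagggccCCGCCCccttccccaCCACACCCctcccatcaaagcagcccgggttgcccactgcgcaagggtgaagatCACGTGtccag
Cdk6, chr5:3343643-3343892, plus strand: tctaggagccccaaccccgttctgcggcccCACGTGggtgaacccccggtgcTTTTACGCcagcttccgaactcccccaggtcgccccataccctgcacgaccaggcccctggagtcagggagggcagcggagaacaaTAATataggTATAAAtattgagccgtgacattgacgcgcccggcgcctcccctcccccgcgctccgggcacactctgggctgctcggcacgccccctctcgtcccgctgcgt
Ccnd3, start site 1, chr17:47504801-47505050, plus strand: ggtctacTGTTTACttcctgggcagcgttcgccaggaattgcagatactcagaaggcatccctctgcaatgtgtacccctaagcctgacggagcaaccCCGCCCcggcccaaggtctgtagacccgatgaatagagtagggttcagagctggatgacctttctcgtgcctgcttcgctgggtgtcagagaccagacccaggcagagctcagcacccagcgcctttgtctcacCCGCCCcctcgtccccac
Ccnd3, start site 2, chr17:47593217-47593466, plus strand: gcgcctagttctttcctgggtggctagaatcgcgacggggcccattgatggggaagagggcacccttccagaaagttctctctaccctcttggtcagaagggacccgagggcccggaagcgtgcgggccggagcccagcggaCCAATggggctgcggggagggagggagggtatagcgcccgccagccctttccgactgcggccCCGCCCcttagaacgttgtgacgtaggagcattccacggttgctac

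The *Cdk4* window held 1 match to GGGCGG and 4 to CACGTG, a sequence bound by MYC and related factors. At least 1 match to CACGTG occurs in 6.02% of all 32851 windows of this length, and 4 or more in 0.0213%. The cut-off of 4 is the count in the *Cdk4* window itself, so the last share is a description and not a test. The *Cdk6* window had 1 such match, 1 match to TTTNNCGC, found in 4.28% of all windows, 1 to TAAT and 1 to TATAAA, found in 12.4%. The *Cdkn1b* window had 2 matches to CCAAT (33.8% of all windows), 1 to GGGCGG (32.7%) and 1 to TAAT (54.9%), and 0 to GTAAACA (3.17%). The windows of *Ccnd3* had 2 and 1 matches to GGGCGG, with 1 match to GTAAACA in the first and 1 to CCAAT in the second. AGATAA, found in 9.99% of all windows, had 0 matches in the windows shown, and CCACACCC, found in 3.20%, had 1, in that of *Cdk4*. These matches are letters in a sequence, and binding was not measured in these libraries.

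Among the D cyclins, *Ccnd3* fell, while the mean of *Ccnd2* was higher with dox but did not pass the threshold. *Ccnd3* (ENSMUSG00000034165, chromosome 17 of NCBIM37, 47642000 to 47736632, plus strand) was at 104.7, 103.8 and 123.7 CPM in dox-treated replicates 1, 2 and 3 and at 175.1, 180.4 and 151.1 CPM in the untreated replicates. The highest dox-treated library was thus below the lowest untreated one. Means were 110.7 ± 11.2 CPM in dox-treated and 168.9 ± 15.6 CPM in untreated MEPs (SD, n = 3 each), a log2 fold change of -0.61 (standard error 0.13, 95% interval -0.92 to -0.29, limma adjusted p = 0.0466). The 16 alternatives gave adjusted p values from 0.0055 to 0.177, of which 9 were under 0.05. Of the exonic bases of *Ccnd3*, 15.7% also lie in exons of *Bysl* on the opposite strand, and use of strand in the counting is not given in the sources used here. *Bysl*, a gene of ribosome assembly, was at 75.5 ± 3.39 CPM in dox-treated against 112.3 ± 18.6 CPM in untreated MEPs (SD, n = 3 each, difference -0.56 on the log2 scale, limma adjusted p = 0.0718), so that part of the *Ccnd3* reads is uncertain. A pseudogene, *Ccnd3-ps*, is annotated on chromosome 4, and how many reads it could share with *Ccnd3* was not tested.

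*Ccnd2* (ENSMUSG00000000184, chromosome 6, 127075797 to 127101066, minus strand), the D cyclin most tied to cytokine and growth factor signals in blood cells, was at 187.2, 200.3 and 206.3 CPM in dox-treated replicates 1, 2 and 3 and at 145.8, 171.3 and 150.4 CPM in the untreated replicates. All 3 dox-treated libraries were above all untreated ones, and replicate 3 was the highest of them. The log2 fold change was 0.35 (standard error 0.11, 95% interval 0.07 to 0.62, limma adjusted p = 0.107), with means of 197.9 ± 9.75 CPM in dox-treated and 155.8 ± 13.6 CPM in untreated MEPs (SD, n = 3 each). *Ccnd1* (ENSMUSG00000070348, chromosome 7, 152115836 to 152125774, minus strand), the D cyclin of many adherent cell types, had 43, 23 and 28 reads with dox and 63, 45 and 52 reads without. The groups did not overlap in CPM, with the highest dox-treated library (replicate 1) at 3.20 CPM and the lowest untreated library (replicate 2) at 3.36 CPM. Its log2 fold change was -0.98 (standard error 0.29, 95% interval -1.68 to -0.28, limma adjusted p = 0.0882). Of its exonic bases 21.3% are shared with *Oraov1* on the opposite strand, which was at 19.5 ± 3.02 CPM in dox-treated against 19.5 ± 2.92 CPM in untreated MEPs (SD, n = 3 each).

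Of the kinases, *Cdk4* had a lower and *Cdk6* a higher mean with dox, and neither passed the threshold. *Cdk4* (ENSMUSG00000006728, chromosome 10, 126500590 to 126504976, plus strand) was at 344.2, 329.1 and 423.8 CPM in dox-treated replicates 1, 2 and 3 and at 476.5, 512.1 and 463.9 CPM in the untreated replicates. The groups did not overlap, and dox-treated replicate 3 was the closest to the untreated libraries. The log2 fold change was -0.41 (standard error 0.13, 95% interval -0.74 to -0.09, limma adjusted p = 0.107) and -0.52 without dox-treated replicate 3 (limma adjusted p = 0.021), and the adjusted p lay between 0.0077 and 0.305 over the alternatives. *Tspan31* on the opposite strand shares 18.6% of the exonic bases of *Cdk4* and was at 48.5 ± 4.92 CPM in dox-treated against 44.9 ± 3.97 CPM in untreated MEPs (SD, n = 3 each).

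*Cdk6* (ENSMUSG00000040274, chromosome 5, 3343893 to 3523218, plus strand), a kinase that is high in early progenitors, was at 187.7, 188.9 and 123.6 CPM in dox-treated replicates 1, 2 and 3 and at 114.1, 94.0 and 123.7 CPM in the untreated replicates. Dox-treated replicate 3 was therefore level with untreated replicate 3, while the other dox-treated libraries were above all untreated ones. The log2 fold change was 0.57 (standard error 0.21, 95% interval 0.06 to 1.09, limma adjusted p = 0.138) and 0.78 without dox-treated replicate 3 (limma adjusted p = 0.0236), and the adjusted p lay between 0.0089 and 0.355 over the alternatives.

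Among the CIP/KIP inhibitors, *Cdkn1b*, which encodes p27, showed the largest mean change of the 10 genes. *Cdkn1b* (ENSMUSG00000003031, chromosome 6, 134870419 to 134875531, plus strand) was at 124.7, 117.9 and 68.1 CPM in dox-treated replicates 1, 2 and 3 and at 47.4, 38.9 and 48.4 CPM in the untreated replicates. No dox-treated value reached down to the untreated range, although replicate 3 stood apart from the other dox-treated libraries on the side of the untreated ones. Means were 103.6 ± 30.9 CPM in dox-treated and 44.9 ± 5.23 CPM in untreated MEPs (SD, n = 3 each). On the log2 scale the fold change was 1.16 (standard error 0.26, 95% interval 0.53 to 1.79), which is 2.24-fold between geometric means. The adjusted p of 0.0508 (limma) was just above the threshold. The 16 alternatives put it between 0.002 and 0.168, in 7 cases under 0.05. Without dox-treated replicate 3 the log2 fold change was 1.44 (limma adjusted p = 0.0068).

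*Cdkn1c* (ENSMUSG00000037664, chromosome 7, 150644255 to 150646955, minus strand), which encodes p57, had 34, 36 and 12 reads in dox-treated replicates 1, 2 and 3 and 16, 12 and 8 reads in the untreated replicates. Dox-treated replicates 1 and 2 were above all untreated libraries, and replicate 3 was among them. The log2 fold change was 0.86 (standard error 0.51, 95% interval -0.38 to 2.11, limma adjusted p = 0.303). Without dox-treated replicate 3 it was 1.44 (limma adjusted p = 0.0194), and the adjusted p lay between 0.0109 and 0.61 over the alternatives. *Cdkn1a* (ENSMUSG00000023067, chromosome 17, 29227924 to 29237667, plus strand), the p53 target that encodes p21, had 53, 22 and 34 reads with dox and 39, 33 and 22 reads without. The libraries of both groups were interleaved, and the log2 fold change of -0.03 had a 95% interval from -0.86 to 0.80 (limma adjusted p = 0.959). *Trp53*, which encodes p53, was at 268.5 ± 14.7 CPM in dox-treated against 355.1 ± 29.2 CPM in untreated MEPs (SD, n = 3 each, difference -0.40 on the log2 scale, limma adjusted p = 0.0821).

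The INK4 inhibitors differed from each other in their values. *Cdkn2d* (ENSMUSG00000066860, chromosome 9, 21092907 to 21095653, minus strand) was at 15.5, 13.8 and 11.1 CPM in dox-treated replicates 1, 2 and 3 and at 8.13, 5.58 and 8.14 CPM in the untreated replicates. The groups did not overlap. The log2 fold change was 0.90 (standard error 0.21, 95% interval 0.39 to 1.40), with an adjusted p of 0.0557 (limma) that the 16 alternatives put between 0.0063 and 0.178, 5 of them under 0.05. NCBIM37 holds a second copy of this gene on chromosome 9, annotated as *Gm4694*, and 95.9% of the 50-base words of the *Cdkn2d* transcript also occur in it. The copy was not among the genes analysed, and how the authors' quantification divided reads between them was not tested, so the level of *Cdkn2d* is uncertain. *Cdkn2c* (ENSMUSG00000028551, chromosome 4, 109333481 to 109339794, minus strand) was at 52.2, 56.7 and 47.8 CPM with dox and at 53.5, 65.9 and 51.5 CPM without, and the groups overlapped. Its log2 fold change was -0.12 (standard error 0.14, 95% interval -0.46 to 0.22, limma adjusted p = 0.593). The other INK4 genes *Cdkn2a* and *Cdkn2b* were not among the genes analysed.

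Members of each class were then summed within a library as CPM per kilobase. The summed D cyclins were at 84.9, 86.4 and 97.2 in dox-treated replicates 1, 2 and 3 and at 112.6, 119.2 and 101.6 in the untreated replicates, a log2 ratio of means of -0.31 with no overlap (two-sided exact permutation test, p = 0.1). Within this sum *Ccnd2* held 38.7%, 40.7% and 37.2% with dox and 22.7%, 25.2% and 26.0% without, a difference of 14.2 percentage points. The share of *Ccnd3* was 60.3%, 58.8% and 62.3% with dox and 76.1%, 74.0% and 72.8% without. Both shares were separated in all libraries, dox-treated replicate 3 included (exact permutation test, p = 0.1 for each). This follows from the separate ranges of *Ccnd2* and *Ccnd3* given above. Because these genes make up nearly all of the sum, the shares are not separate results. *Ccnd1* held between 0.503% and 1.26% of the sum in every library. Leaving out dox-treated replicate 3 changed the difference in *Ccnd2* share to 15.0 percentage points.

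*Cdk6* made up 15.8%, 16.5% and 9.11% of the summed kinase transcripts in dox-treated replicates 1, 2 and 3 and 7.60%, 5.93% and 8.39% in the untreated replicates. Replicate 3 was thus near the untreated libraries in this share and not in the D-cyclin shares. The difference in means was 6.48 percentage points, and 8.82 without dox-treated replicate 3. The summed CIP/KIP inhibitors were at 41.8, 37.3 and 22.6 CPM per kilobase with dox and at 17.9, 14.6 and 16.7 without (log2 ratio 1.05, exact permutation test, p = 0.1), of which *Cdkn1b* was the main component. The summed INK4 inhibitors were at 41.4, 42.6 and 35.5 CPM per kilobase with dox and at 36.3, 41.2 and 35.2 without, and overlapped (log2 ratio 0.08, exact permutation test, p = 0.4).

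**Figure D3:**
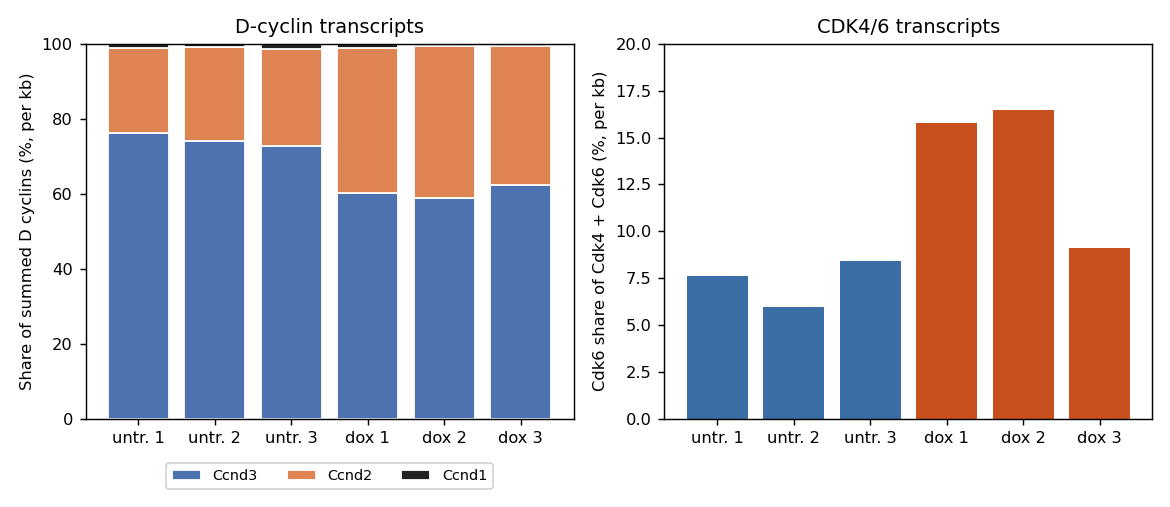
Share of each D-cyclin transcript in the summed D cyclins (left) and of *Cdk6* in the sum of *Cdk4* and *Cdk6* (right), in percent of CPM per kilobase, for each untreated (untr.) and dox-treated (dox) library. *Ccnd2* holds 37.2% to 40.7% of the D-cyclin sum with dox and 22.7% to 26.0% without, and the *Cdk6* share of dox-treated replicate 3 is 9.11%.

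The genes downstream of the G1 kinases were examined through lists written by hand. Of 26 E2F target genes, 25 had a negative log2 fold change, with a median of -0.39 against -0.03 over all genes. Of these 1 fell at an adjusted p under 0.05 (limma), *Cdt1*, a licensing factor of replication origins (log2 fold change -0.55, limma adjusted p = 0.0471), against 3.18% of all genes, and 22 did without dox-treated replicate 3, against 14.0% of all genes. *Mcm2*, a subunit of the replicative helicase, was at 394.9 ± 68.6 CPM in dox-treated against 554.7 ± 35.3 CPM in untreated MEPs (SD, n = 3 each, difference -0.50 on the log2 scale, limma adjusted p = 0.0935). *Pold1*, the catalytic subunit of DNA polymerase delta, and *Ung*, a uracil glycosylase of DNA repair, both had a log2 fold change of -0.42. Of 18 G2/M cyclins and kinases 16 had a negative log2 fold change (median -0.33), 0 fell and 1 rose, beside 3.18% and 4.59% of all genes. The gene that rose was *Cdc25b*, a phosphatase that activates CDK1, at 27.5 ± 1.68 CPM in dox-treated against 16.4 ± 2.10 CPM in untreated MEPs (SD, n = 3 each, limma adjusted p = 0.0321). The mitotic kinase genes *Plk1* (log2 fold change -0.54) and *Aurka* (-0.59) and the cyclin gene *Ccnf* (-0.50) did not pass the threshold. Without dox-treated replicate 3, 13 of the 18 were called lower and 1 higher, against 14.0% and 14.9% of all genes.

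Of 28 genes of the G1/S machinery 25 were listed, of which 3 fell and 0 rose, against 3.18% and 4.59% of all genes (median log2 fold change -0.14). Those that fell were *E2f4*, *E2f6* and *E2f8*, while *E2f2* (log2 fold change 0.42), *E2f5* (0.41), *E2f7* (0.43), *E2f1* (-0.11) and *E2f3* (-0.25) did not pass the threshold. The last 5 were named after their values were seen. *E2f6*, a repressor that acts without the retinoblastoma protein, was at 46.2 ± 9.56 CPM in dox-treated against 82.5 ± 6.84 CPM in untreated MEPs (SD, n = 3 each) and thus fell (difference -0.85 on the log2 scale, limma adjusted p = 0.0412). *E2f4*, the E2F most abundant in resting cells and needed for fetal erythropoiesis, was at 205.3 ± 17.8 CPM in dox-treated against 335.5 ± 52.0 CPM in untreated MEPs (SD, n = 3 each) and thus fell (difference -0.70 on the log2 scale, limma adjusted p = 0.0471). *E2f8*, an atypical repressor, had a log2 fold change of -0.45 (limma adjusted p = 0.0471). *Ccne1*, the cyclin E partner of CDK2, was at 100.1 ± 22 CPM in dox-treated against 180.4 ± 43.0 CPM in untreated MEPs (SD, n = 3 each, difference -0.85 on the log2 scale, limma adjusted p = 0.0762). Without dox-treated replicate 3, 10 of the 25 were called lower and 0 higher, where the shares over all genes were 14.0% and 14.9%.

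Of 23 regulators of the transcription of G1 cyclins and inhibitors, 0 passed the threshold, and without dox-treated replicate 3 there were 4 higher and 4 lower, shares close to the 14.9% and 14.0% of all genes called in that fit. *Foxo4*, of the forkhead family that acts on *Cdkn1b*, was at 60.7 ± 6.04 CPM in dox-treated against 40.0 ± 4.44 CPM in untreated MEPs (SD, n = 3 each, difference 0.60 on the log2 scale, limma adjusted p = 0.0546). Of the same family, the more abundant *Foxo3* had a log2 fold change of -0.25 (limma adjusted p = 0.218) and *Foxo1* of 0.76 (limma adjusted p = 0.178). Both were named after their values were seen. *Gata2*, a factor of stem and progenitor cells, had a log2 fold change of 1.46 (limma adjusted p = 0.0698). *Myc*, an activator of *Ccnd2* and *Cdk4* and a repressor of inhibitor genes, was at 300.6 ± 27.7 CPM in dox-treated against 390.8 ± 15.0 CPM in untreated MEPs (SD, n = 3 each, difference -0.38 on the log2 scale, limma adjusted p = 0.0887). Of 14 genes acting on the turnover of D cyclins and p27, 13 were listed and 0 passed the threshold (median log2 fold change -0.19), and without dox-treated replicate 3 there were 3 lower and 0 higher, where 14.0% and 14.9% of all genes were called so. In this list *Hsp90ab1*, a chaperone of CDK4, had a log2 fold change of -0.34, *Fbxo31*, a ubiquitin ligase subunit for cyclin D1, -0.38, *Rnf123* -0.30 and *Ubac1*, its partner in the degradation of p27, -0.42.

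**Figure D4:**
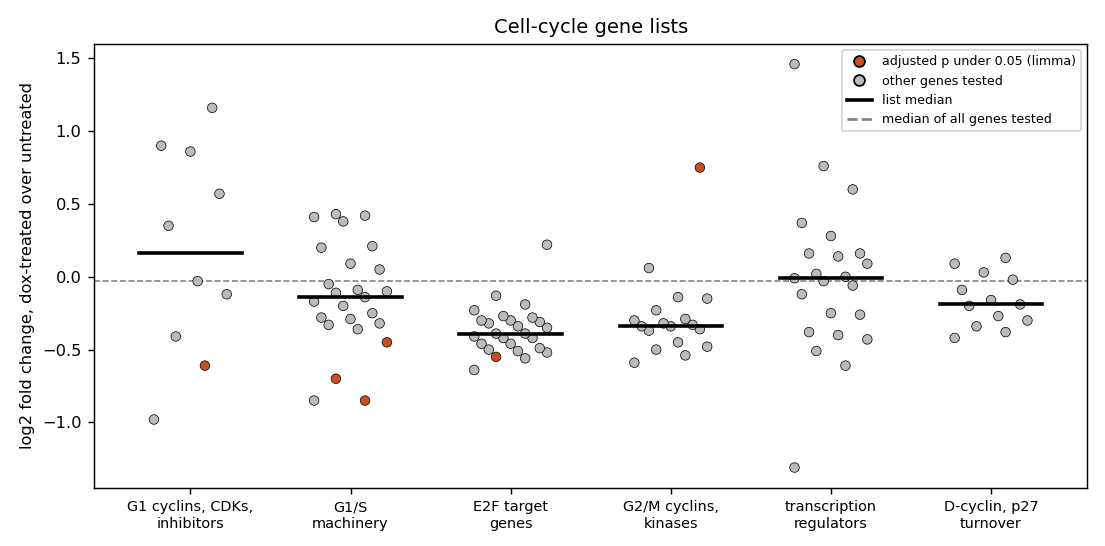
Log2 fold change, dox-treated over untreated, of every tested gene in the 10 G1 genes and in 5 further lists, with genes at an adjusted p under 0.05 (limma) in orange, list medians as black bars and the median of all genes as a dashed line. Of the 26 E2F target genes 25 lie below 0, and the 10 G1 genes spread from -0.98 to 1.16.

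The gene whose log2 values over the 6 libraries were most like those of each member was found among the 9973 named genes that averaged 5 CPM or more, as a description. For *Cdk4* it was *Mcm2* (Pearson r = 0.9999 over 6 libraries), and 676 genes had r of at least 0.95 with *Cdk4*. For *Ccnd3* it was the chaperone gene *Hsp90b1* (r = 0.9983), for *Cdk6* it was *Ptms* (0.9991), for *Cdkn1b* it was *Slc44a2* (0.9991), and for *Cdkn2d* it was *Gpr171* (0.9987). For *Ccnd1*, *Ccnd2*, *Cdkn1c* and *Cdkn2c* they were *Atg7* (0.9922), *Fzd5* (0.9900), *Ccdc50* (0.9981) and *BC031781* (0.9827). For *Cdkn1a* it was *2410002O22Rik* (0.9048), and 0 genes reached 0.95. All of these values share the same 6 libraries and their depth.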

How the data were processed

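RNA of sorted megakaryocyte–erythroid progenitors from 3 dox-treated and 3 untreated replicates was sequenced. The authors trimmed adapters with Cutadapt, quantified reads with RSEM against NCBIM37 Ensembl transcripts and normalized the result with limma. The deposited unit is log2 CPM, with 0.5 reads added. Whole reads could be recovered from these log2 values for 100% of genes in every library within 0.01 reads, and levels given here in CPM are 2 to the power of the deposited value.

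The 12088 genes that reached 1 CPM in 3 or more libraries were fitted with limma (version 3.58.1, R 4.3.3, lmFit and eBayes, no block or weights) with Benjamini–Hochberg adjustment over all of them at 0.05. The fit was also run on simulated reads. These had the same variance setting for every gene and no outlying library, so they do not cover the effect of dox-treated replicate 3. Tables and figures used Python 3.11.15, pandas 2.3.3, scipy 1.17.1 and matplotlib 3.10.9. Lengths, positions and overlaps come from the GENCODE annotation of NCBIM37, an Ensembl release near that of the authors. The members, lists and tests were chosen with earlier results of these data known. The rule for named genes was all 10 members, up to 4 genes per pathway list with the smallest p, and per member the gene with the most similar pattern. *Bysl*, *Oraov1*, *Tspan31* and *Gm4694* were named after their overlap or identity with members was seen. The erythroid markers *Car1*, *Car2* and *Aqp1* were named after their levels were seen. Alternatives changed the pseudocount, filter, variance model, weights, scaling, block, transcript length and threshold, and left out each library in turn.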

Additional observations from a re-analysis of the deposited data

How the results depend on the processing

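Of the 10 genes, limma called 0 higher and 1 lower at an adjusted p under 0.05, beside 939 of all genes. The genes higher and lower were 1 and 1 with 2 reads added (975 of all genes called), 2 and 1 with a mean-variance trend or a robust trend (1656 and 1641 of all genes called), 1 and 1 with voom precision weights (1185), 5 and 2 with array quality weights (5116 of all genes) and 2 and 2 with quantile normalization (1185 of all genes). At an adjusted p under 0.1 they were 2 and 2 (2212 of all genes). Leaving out each library gave from 0 to 4 higher, from 0 to 2 lower and from 135 to 3488 of all genes called, the upper end of each without dox-treated replicate 3. Without that library the genes higher in every remaining dox-treated library were 5 in place of 3 (31.1% in place of 17.7% of all genes), a comparison added after seeing the data. The counts for the pathway and marker lists without that library were also added after seeing the data. No other library was left out for those lists. The cause of the changes between settings was not tested.

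Same-numbered libraries deviated from their group means with correlations of 0.0184, -0.121 and -0.299 across genes for numbers 1, 2 and 3, so the numbers were not taken to pair the libraries. In a fit with a replicate block 0 of the 10 genes were higher and 0 lower, with 82 of all genes called, and with the block and voom precision weights 1 was higher and 0 lower, with 926 of all genes called.

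The log2 fold change of *Cdkn1a* was above 0 with array quality weights (0.17), total-read scaling (0.08), and the replicate block with voom precision weights (0.02), and between -0.37 and 0.24 when libraries were left out singly. The other 9 genes kept their direction under all alternatives run, as did the class sums and shares. Total-read scaling moved the median of all genes by 0.11 on the log2 scale. Counting error is largest for *Ccnd1*, *Cdkn1a* and *Cdkn1c*, which had 8 to 63 reads per library.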
